A study of Mus musculus with 3 samples.

Results

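The brain chondroitin sulfate proteoglycans, a link protein and a hyaluronan receptor were followed through a mouse glioblastoma, as 9 of the 50262 genes in the deposited table. The 9 genes were chosen by name and not by their measured values. They were the secreted lecticans brevican (Bcan), neurocan (Ncan), versican (Vcan) and aggrecan (Acan), the membrane proteoglycans Cspg4, Cspg5 and Ptprz1, the link protein gene Hapln1, and Cd44, which encodes a hyaluronan receptor. All 9 passed the filter on low counts in every comparison tested.

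Chondroitin sulfate proteoglycans are core proteins that carry sulfated sugar chains and, in brain, take the place that fibrous collagen has in other tissues. Lecticans bind hyaluronan at one end and tenascins at the other, and link proteins hold the hyaluronan end in place. Oligodendrocyte progenitors are known for Cspg4 (NG2), versican and Ptprz1, astrocytes for brevican and neurocan, and the chains are known as obstacles to axon growth and cell movement.

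The study sorted CD45+ and CD45- cells from mouse glioblastomas and counted unique molecular identifiers (UMIs), each standing for 1 captured transcript, with the inDrop droplet method. Mice with a conditional human wild-type EGFR transgene and a conditional luciferase reporter and germline loss of Cdkn2a (Cdkn2a-/-) received a Cre lentivirus in the striatum, so that the Cdkn2a-/- genotype was shared by every cell described, tumor or not. The viral vectors carried iCre alone or TGFa with iCre, and adult males and females of mixed background were used. By the series design, which counts 3 tumors, and the library names, which carry 1 number per stage, there was 1 tumor sample for each of the stages early, medium and late (annotated as large). The early one was pooled from more than 1 mouse, and each was spread over 4 technical libraries per sort in 3 sequencing runs. Brains without tumors were not analysed here, so every cell came from a brain that had received the virus. After filtering, 17781 cells remained, 11185 of them CD45+ and 6596 CD45-, with a median of 1964 to 2109 UMIs per CD45+ cell and 2282 to 3078.5 UMIs per CD45- cell across stages. Within a run, 566 cell barcodes occurred in more than 1 library, on 1141 of these cells.

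Cells were grouped into classes by marker genes, with the 9 genes and 59 related genes kept out of the clustering. Clusters in which at least 25% of CD45- cells held a human EGFR UMI were called EGFR-carrying. The rule marks clusters and not single cells, so these clusters also took in cells in which no transgene UMI was found. Of these, 9 clusters (786 CD45- cells of the medium and late tumors) also met the oligodendrocyte progenitor marker rule, and 2 clusters (661 cells) did not. A progenitor-like class (258 cells) met the same rule with at most 0.781% of a cluster's CD45- cells holding a human EGFR UMI, all 7 progenitor markers being raised in it. An astrocyte-like class (167 cells) raised all 7 astrocyte markers. Levels are given as CPM, the UMIs of a gene per 1000000 UMIs of all genes. Human EGFR stood at 1914 CPM in the medium and 1919 in the late EGFR-carrying cells, against 0, 0 and 21.7 in the progenitor-like and 0, 130 and 119 in the astrocyte-like cells of the early, medium and late tumors. The early tumor had only 4 CD45- cells in the EGFR-carrying clusters without progenitor markers, and its 38 cells in the clusters with them held 0 human EGFR UMIs (upper limit 35.4 CPM), so both EGFR-carrying classes were taken from the medium and late tumors. EGFR-carrying cells were deeper, at a median of 4048 UMIs with progenitor markers and 6247 without, than the progenitor-like (2738) and astrocyte-like (1679) cells. The part of depth in the differences between classes was not tested beyond the scaling to CPM and the thinning described with the shares of cells.

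Reference sequence from RefSeq (GRCm38.p6) was matched for the promoters of 8 of the 9 genes. The 250 bases before the start site are shown for 3 genes that were lower in EGFR-carrying than in progenitor-like cells (Bcan, Ptprz1 and Cspg4) and for Cd44, the gene that was higher. Capitals mark matches on either strand to a GC box (GGGCGG, which reads CCGCCC on the opposite strand) or to the E-box CAGCTG, which reads the same on both strands.
Bcan, chr3:88000357-88000606, - strand: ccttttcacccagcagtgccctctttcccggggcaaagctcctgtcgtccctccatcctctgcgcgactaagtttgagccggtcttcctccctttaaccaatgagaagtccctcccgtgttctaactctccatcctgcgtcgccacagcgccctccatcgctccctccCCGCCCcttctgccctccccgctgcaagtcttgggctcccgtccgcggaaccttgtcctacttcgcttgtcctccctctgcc
Ptprz1, chr6:22875252-22875501, + strand: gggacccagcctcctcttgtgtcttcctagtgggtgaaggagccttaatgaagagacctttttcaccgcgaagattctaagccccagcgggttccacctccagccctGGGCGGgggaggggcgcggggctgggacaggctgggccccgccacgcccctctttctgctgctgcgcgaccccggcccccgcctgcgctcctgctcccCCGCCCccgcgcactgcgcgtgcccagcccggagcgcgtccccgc
Cspg4, chr9:56864854-56865103, + strand: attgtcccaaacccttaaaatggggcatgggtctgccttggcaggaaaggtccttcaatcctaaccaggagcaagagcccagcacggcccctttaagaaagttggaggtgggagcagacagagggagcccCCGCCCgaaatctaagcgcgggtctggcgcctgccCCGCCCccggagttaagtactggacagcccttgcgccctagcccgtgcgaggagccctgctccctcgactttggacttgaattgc
Cd44, chr2:102901666-102901915, - strand: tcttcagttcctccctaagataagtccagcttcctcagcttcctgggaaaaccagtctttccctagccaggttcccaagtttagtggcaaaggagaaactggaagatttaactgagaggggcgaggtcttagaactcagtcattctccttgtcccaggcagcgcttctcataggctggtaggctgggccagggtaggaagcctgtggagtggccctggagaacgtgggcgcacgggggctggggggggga
Matches to the GC box numbered 1 in the Bcan, 2 in the Ptprz1 and 2 in the Cspg4 window, and 0 in that of Cd44. In the windows of Acan, Ncan and Vcan there were 3, 1 and 2, and in that of Hapln1, which was also lower in EGFR-carrying cells, there were 0. GGGCGG was present in 32.7% of 32851 RefSeq promoter windows of this length. The E-box CAGCTG was present in 13% of all windows and, among the 8 genes, in the windows of Acan and Ncan. A different E-box, CAGATG, was present in 14.4% of all windows on either strand, and the SOX motif ACAAAG was present in 16.5%. Neither was found in any of the 8. A match is a string of letters and not a measured binding site.

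The genes lie on 7 chromosomes by the GRCm38 annotation (GENCODE M21), and all are protein coding. Bcan (ENSMUSG00000004892) spans chr3:87987531-88000230 on the minus strand, Ptprz1 (ENSMUSG00000068748) chr6:22875502-23052916 on the plus strand and Cd44 (ENSMUSG00000005087) chr2:102811141-102901665 on the minus strand. Cspg4 (ENSMUSG00000032911) at chr9:56865033-56899870 and Cspg5 (ENSMUSG00000032482) at chr9:110243783-110262576 share a chromosome, both on the plus strand. Acan (ENSMUSG00000030607) spans chr7:79053483-79115099 on the plus strand and Ncan (ENSMUSG00000002341) chr8:70093085-70120873 on the minus strand. Hapln1 (ENSMUSG00000021613) at chr13:89539796-89611652 and Vcan (ENSMUSG00000021614) at chr13:89655312-89742509 are neighbours on opposite strands.

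The CD45- sort held most of the proteoglycan transcripts. Of the 9 genes, 7 were lower in CD45+ than in CD45- cells, by 2.37 (Cspg4) to 3.38 (Acan) on the log2 scale, and Ncan and Cd44 did not pass. In CD45- samples Bcan was 145 (early), 358 (medium) and 315 (late) CPM (273 ± 113, SD, n = 3), and in CD45+ samples it was 8.97, 41.4 and 22.1. Ptprz1 followed at 235, 609 and 473 against 12.5, 79.3 and 33.6. The sorts did not overlap for either gene. Of the 619 Bcan UMIs in the CD45+ sort, 314 and 113 lay in cells of EGFR-carrying clusters with and without progenitor markers. For Ptprz1 these were 632 and 181 of 1088. In edgeR's quasi-likelihood test over summed counts with the tumor sample as a block, the log2 difference was -3.28 ± 0.28 (SE, adjusted p = 0.00018) for Bcan and -3.29 ± 0.34 (adjusted p = 0.00033) for Ptprz1. Of 18433 genes tested, 46.1% passed in this comparison and 25.7% were lower and 20.4% higher in CD45+ cells, so that passing was common here. In such sums over a whole sort, fewer cells of a type and less RNA per cell cannot be told apart.

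Neurocan and Cd44 behaved differently from the other genes between the sorts. In CD45- samples Ncan was 72.7 (early), 184 (medium) and 202 (late) CPM against 66.1, 66.2 and 93.8 in CD45+ samples, a log2 difference of -0.55 ± 0.27 (edgeR adjusted p = 0.14). Leaving out the early tumor gave -0.85 (adjusted p = 0.033), and edgeR without TMM factors gave -0.91 (adjusted p = 0.031). Cd44 was 4.44, 36.7 and 152 in CD45- and 39.6, 130 and 95.5 in CD45+ samples, so the order of the sorts turned in the late tumor, and the log2 difference of 1.76 ± 0.70 did not pass (edgeR adjusted p = 0.079). Without the late tumor it was 2.81 (adjusted p = 0.0015), and DESeq2 gave 1.88 (adjusted p = 0.0035). Acan, at 6.79, 14.3 and 12.4 against 0.278, 2.67 and 0 CPM, passed at -3.38 ± 0.73 (adjusted p = 0.0092) but rested on 29 UMIs in the CD45+ sort and did not pass without the early tumor (adjusted p = 0.058).

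**Figure D1:**
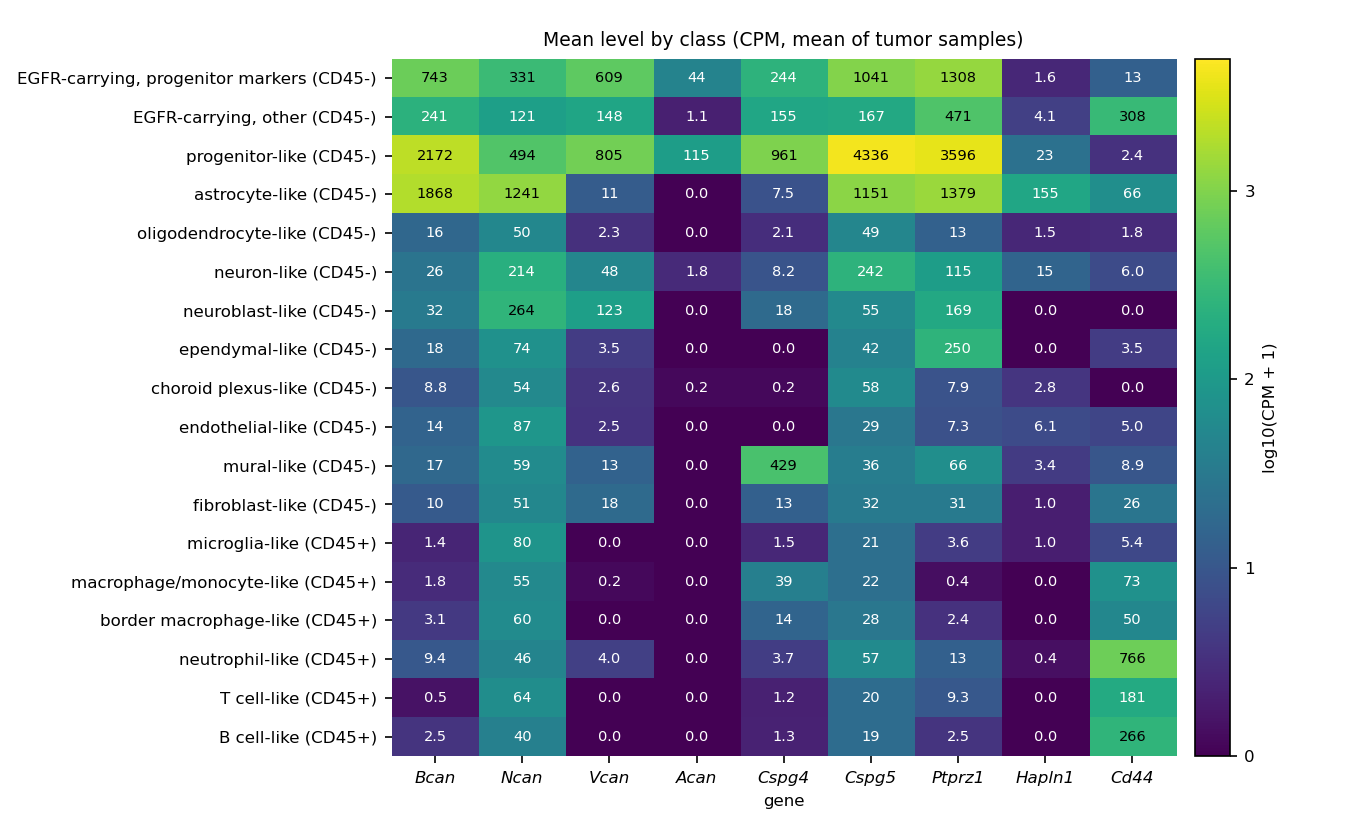
Mean level of each gene (columns) in each marker-defined class (rows), in CPM averaged over the tumor samples in which the class had at least 20 cells, with color on a log10 scale. Bcan, Cspg5 and Ptprz1 are highest in progenitor-like cells, Cspg4 is also seen in mural-like cells at 429, and Cd44 lies in neutrophil-like cells at 766 and in EGFR-carrying cells without progenitor markers at 308.

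Which class carried the transcripts changed with the stage. In the early CD45- sample the progenitor-like cells gave 53.6% of the Bcan, 70.3% of the Vcan, 71.7% of the Cspg4 and 69.5% of the Ptprz1 UMIs while making up 4.84% of its cells. In the late sample the EGFR-carrying cells with progenitor markers, 24.5% of its cells, gave 64.2% of the Bcan, 61.3% of the Vcan and 58.1% of the Ptprz1 UMIs. Cspg4 was shared in the late sample between EGFR-carrying cells without (48.8%) and with (37.8%) progenitor markers, the first making up 23.4% of the cells. These deeper cells also held a larger part of the UMIs of all genes than of the cells. The sets without and with markers held 3925696 and 2754129 of the 10589403 UMIs in the late sample. For Cd44 the EGFR-carrying cells without progenitor markers gave 80.5% of all CD45- UMIs in the medium tumor, and 97.0% in the late tumor.

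Scaled to CPM, most of the proteoglycan genes were lower in EGFR-carrying cells than in progenitor-like cells. Taking all EGFR-carrying cells together, 6 of the 9 genes were lower (Cspg4, Cspg5, Bcan, Ncan, Ptprz1 and Hapln1), 1 was higher (Cd44), and Vcan and Acan did not pass. Of 13605 genes tested, 15.3% passed, 8.25% higher and 7.06% lower. The median log2 difference over the 9 genes was -2.07, against -0.05 over all genes tested. Each comparison below used sums per tumor sample and class in 1 edgeR quasi-likelihood fit with the tumor sample as a block, in which the other classes shared the estimate of the spread. The counts rest on the late tumor in part, since 4 of the 9 genes passed without it. They also rest on grouping the cells by cluster. With the cells of the same clusters divided by whether each held a human EGFR UMI, Cspg5 alone passed (-2.05, edgeR adjusted p = 0.00061), and the others kept their direction at adjusted p = 0.063 (Cspg4) to 0.82 (Vcan). In that division the cells without a UMI included 40 medium and 104 late cells of the EGFR-carrying clusters with progenitor markers, beside 190 and 452 with a UMI. They also took in 38 early cells of those clusters, and 20 medium and 57 late cells of the clusters without the markers. Progenitor-like cells without a UMI numbered 132, 76 and 48 (early, medium and late). The 104 late cells held 196836 UMIs of all genes and the 452 held 2557293. The part of depth in missing a transgene UMI was not tested. In the clusters with progenitor markers Cspg5 was 959 CPM with and 2492 without a UMI in the medium tumor but 1028 and 909 in the late one. Vcan was higher there with a UMI in both tumors (721 against 389, and 535 against 335).

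Brevican, the lectican most restricted to the nervous system, was highest in progenitor-like and astrocyte-like cells. Bcan stood at 1819.5, 2431 and 2264 CPM in progenitor-like cells of the early, medium and late tumors and at 1504, 2122 and 1979 in the astrocyte-like cells, which overlap. EGFR-carrying cells held 708 (medium) and 778 (late) with progenitor markers, and 293 and 189 without. Every EGFR-carrying value lay below every progenitor-like and astrocyte-like value. The log2 difference of EGFR-carrying cells was -2.15 ± 0.48 against progenitor-like cells (edgeR adjusted p = 0.0018) and -1.99 ± 0.48 against astrocyte-like cells (adjusted p = 0.0039). With a minimum of 50 cells per sum the second did not pass (-1.78, adjusted p = 0.065).

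Neurocan, a lectican abundant in the developing brain, showed the smallest gap to progenitor-like cells among those that passed. Ncan was 491, 433 and 557 CPM in progenitor-like cells (494 ± 61.9, SD, n = 3), 319 and 343 in EGFR-carrying cells with progenitor markers, and 93.6 and 149 in those without. CD45- microglia-like cells, an unrelated class, held Ncan at 37.7 to 167 over the tumors, and the part of background in the lowest values was not tested. The EGFR-carrying and progenitor-like values did not overlap, and the log2 difference was -1.40 ± 0.40 (edgeR adjusted p = 0.010). It did not pass without the late tumor (-1.33, adjusted p = 0.19) or without the tumor block (-0.99, adjusted p = 0.25). In astrocyte-like cells Ncan was 216, 1744 and 1764 in the early, medium and late tumors, but 222 of the 281 UMIs in the medium tumor sat in 1 cell of 15478 UMIs, and without that cell the medium level was 405. The 4 astrocyte-like cells that held a human EGFR UMI stood at 11919 CPM and the other 163 at 355. With all cells the log2 difference from astrocyte-like cells was -2.47 ± 0.41 (adjusted p = 1.2e-05), and with those cells left out it was -0.97 ± 0.36 and did not pass (adjusted p = 0.058).

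Versican, a lectican of progenitors and of vessel walls, had a smaller fitted log2 difference between EGFR-carrying and progenitor-like cells than the other 3 lecticans, and it did not pass. In summed UMIs the gap of Ncan was the smaller, at a ratio of 0.476 against 0.444 for Vcan. Vcan stood at 855, 809 and 752 CPM in early, medium and late progenitor-like cells, at 698 (medium) and 520 (late) in EGFR-carrying cells with progenitor markers, and at 103 and 194 in those without. The log2 difference of all EGFR-carrying cells from progenitor-like cells was -1.20 ± 0.67 and did not pass (edgeR adjusted p = 0.27), but fitted on the compared classes alone it was -0.73 ± 0.24 and passed (adjusted p = 0.010). Astrocyte-like cells held 6 Vcan UMIs in all, from the early tumor. EGFR-carrying cells were higher than these by 4.42 ± 1.02 on the log2 scale (adjusted p = 0.0045), or 23.6-fold in the summed UMIs with a counting interval of 10.8 to 64.2. Without the late tumor the difference was 4.14 (adjusted p = 0.065).

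Aggrecan, the lectican of cartilage and of the nets around neurons, was found in the 2 progenitor-marker classes, while the astrocyte-like cells and the EGFR-carrying cells without progenitor markers held 2 UMIs together. Acan was 118, 80.5 and 145 CPM in early, medium and late progenitor-like cells, 48.6 and 39.9 in EGFR-carrying cells with progenitor markers, and 2.23 and 0 in those without. All EGFR-carrying cells were lower than progenitor-like cells by 2.00 ± 0.73 on the log2 scale, short of the threshold (edgeR adjusted p = 0.057), and passed when only the compared classes were fitted (-1.99, adjusted p = 0.00019). Astrocyte-like cells held 0 of 387932 UMIs. EGFR-carrying cells stood 2.60-fold above a floor of 3 UMIs over that class, and the counting interval of the summed ratio began at 2.09. The test of that difference passed (adjusted p = 0.022) but not without any 1 of the 3 tumors (adjusted p = 0.055 to 0.25) or with DESeq2 (adjusted p = 0.55).

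The 3 membrane proteoglycan genes were all lower in EGFR-carrying than in progenitor-like cells. Cspg5 (neuroglycan C), a transmembrane proteoglycan with an EGF-like domain, was 3688, 4747 and 4572 CPM in early, medium and late progenitor-like cells. In EGFR-carrying cells it was 1062 and 1019.9 (medium and late) with progenitor markers, and 83.6 and 251 without. The log2 difference was -2.76 ± 0.34 (edgeR adjusted p = 3.5e-08), the smallest adjusted p of the 9 genes in this comparison. Astrocyte-like cells, at 931, 1260 and 1263, overlapped with the EGFR-carrying cells that had progenitor markers, and all EGFR-carrying cells were lower than them by 0.94 ± 0.32 (adjusted p = 0.036). That second call was lost under each left-out medium or late tumor (adjusted p = 0.40 and 0.31), and without the tumor block (adjusted p = 0.089).

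Cspg4 (NG2), the surface proteoglycan by which oligodendrocyte progenitors are often stained, was high in progenitor-like cells and nearly absent from astrocyte-like cells. It stood at 826, 1024 and 1035 CPM in early, medium and late progenitor-like cells and at 16.2, 6.20 and 0 in astrocyte-like cells, on 4 UMIs in all. EGFR-carrying cells lay between, at 290 and 199 (medium and late) with progenitor markers and 130 and 180 without, and overlapped with neither. They were lower than progenitor-like cells by 2.07 ± 0.38 on the log2 scale (edgeR adjusted p = 5.5e-05) and higher than astrocyte-like cells by 4.29 ± 0.64 (adjusted p = 1.3e-06), or 19.2-fold in summed UMIs (counting interval 7.49 to 70.6).

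Ptprz1, a receptor tyrosine phosphatase whose shed form is phosphacan, was 3821, 3125 and 3841 CPM in early, medium and late progenitor-like cells. EGFR-carrying cells held 1558 and 1058 (medium and late) with progenitor markers and 596 and 346 without, all below the progenitor-like values. The log2 difference was -2.15 ± 0.60 (edgeR adjusted p = 0.017). It did not pass without the late tumor (-1.81, adjusted p = 0.21), without the early tumor (-1.95, adjusted p = 0.051) or without the tumor block (-1.87, adjusted p = 0.13). Astrocyte-like cells, at 1217, 1657 and 1263, overlapped with the EGFR-carrying cells that had progenitor markers, and the log2 difference of -0.77 ± 0.58 did not pass (adjusted p = 0.44).

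**Figure D2:**
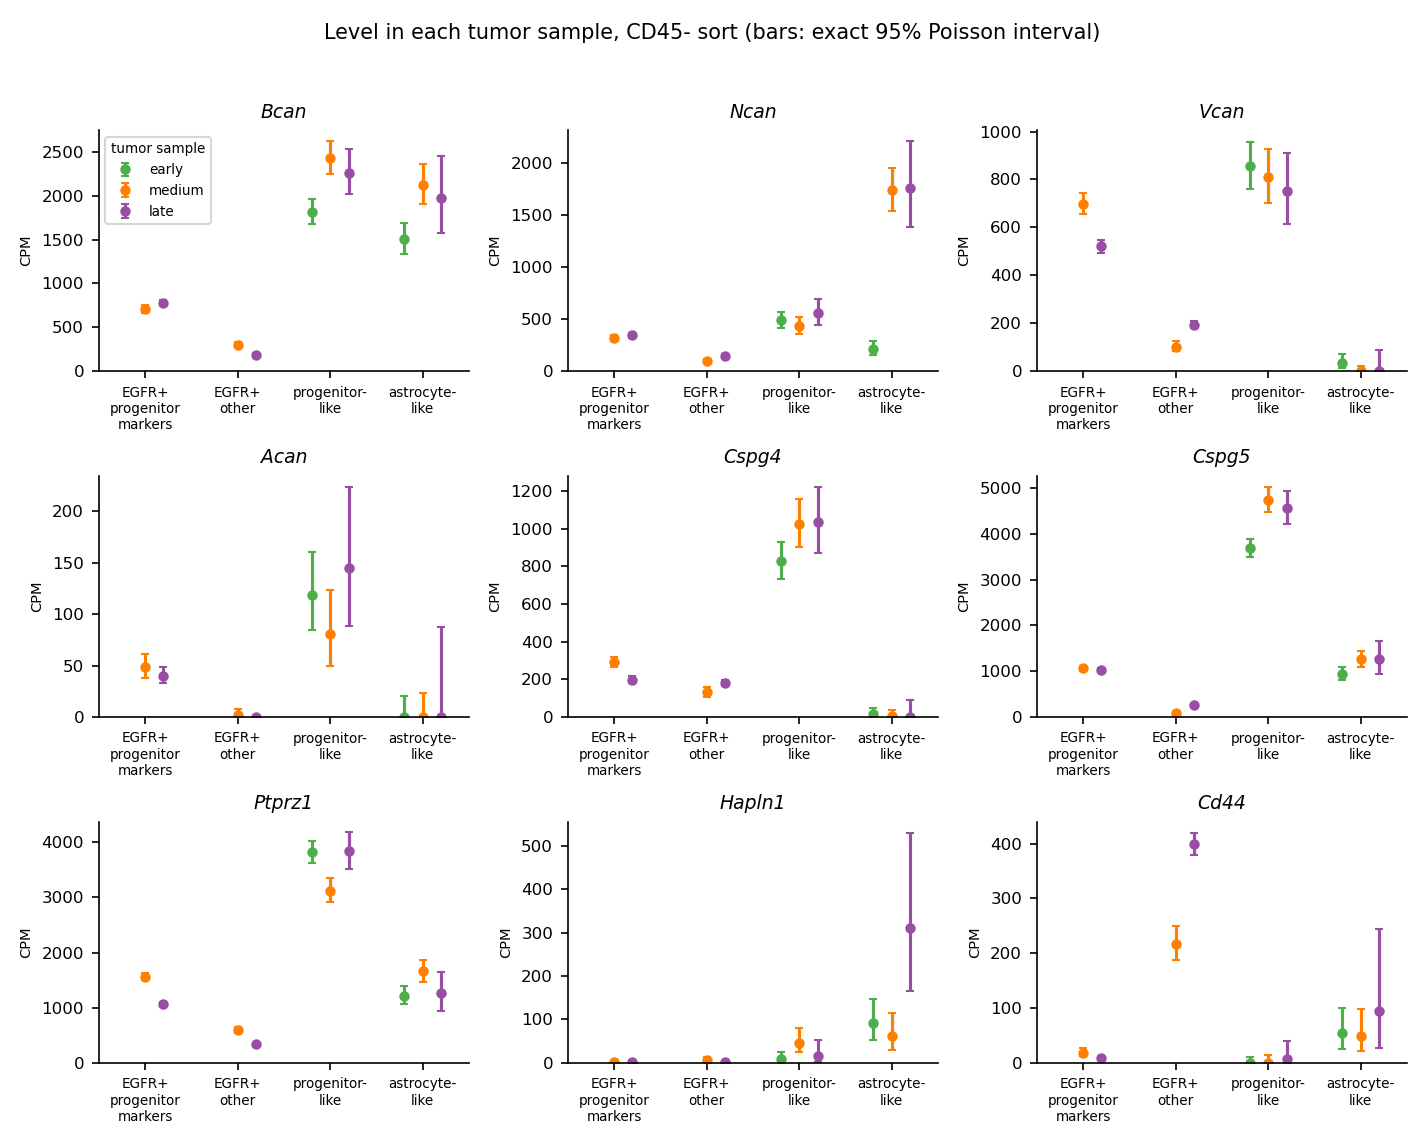
Level of each gene in each tumor sample (color) of the CD45- sort, in CPM on linear axes that start at 0, for EGFR-carrying cells with and without progenitor markers, progenitor-like and astrocyte-like cells. Bars are exact 95% Poisson intervals and cover counting error only. For each gene other than Cd44, every EGFR-carrying point lies under every progenitor-like point, also for Vcan and Acan, which did not pass the test. The share of all genes without overlap was not counted. Cd44 rises in the EGFR-carrying cells without progenitor markers.

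The link protein and the hyaluronan receptor went opposite ways. Hapln1, which fastens lecticans to hyaluronan, was an astrocyte-like transcript here, at 92.0, 62.0 and 310 CPM (early, medium and late) on 40 UMIs. Progenitor-like cells held 8.66, 46.0 and 14.5 on 17 UMIs, and EGFR-carrying cells 2.59 and 2.55 on 23. The log2 difference of EGFR-carrying cells was -5.39 ± 0.97 from astrocyte-like cells (edgeR adjusted p = 4.7e-05) and -2.81 ± 0.95 from progenitor-like cells (adjusted p = 0.034). The second was lost without the medium tumor (-1.38, adjusted p = 0.66), which held 12 of the 17 UMIs, 11 of them in 1 cell, and without the late tumor (-2.97, adjusted p = 0.24).

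Cd44, the main hyaluronan receptor of immune and mesenchymal cells, was nearly absent from progenitor-like cells, with 1 UMI of 745276 and levels of 0, 0 and 7.23 CPM (early, medium and late). EGFR-carrying cells held 94.5 and 238 CPM in the medium and late tumors. On that 1 UMI, the summed ratio was 150 with a counting interval of 26.8 to 5916, and the edgeR adjusted p was 1.4e-06. Astrocyte-like cells stood at 54.1, 49.6 and 95.4 on 22 UMIs, and the log2 difference of EGFR-carrying cells from them, 1.16 ± 0.62, did not pass (adjusted p = 0.22). Of those 22 UMIs, 11 lay in the 4 astrocyte-like cells with a human EGFR UMI, and with such cells left out of both reference classes the difference was 2.51 ± 0.75 (adjusted p = 0.013). Against astrocyte-like cells, 7 of the 9 genes passed in all, 3 higher (Cspg4, Vcan and Acan) and 4 lower (Cspg5, Bcan, Ncan and Hapln1), beside 15% of all genes tested, 7.53% higher and 7.45% lower.

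**Figure D3:**
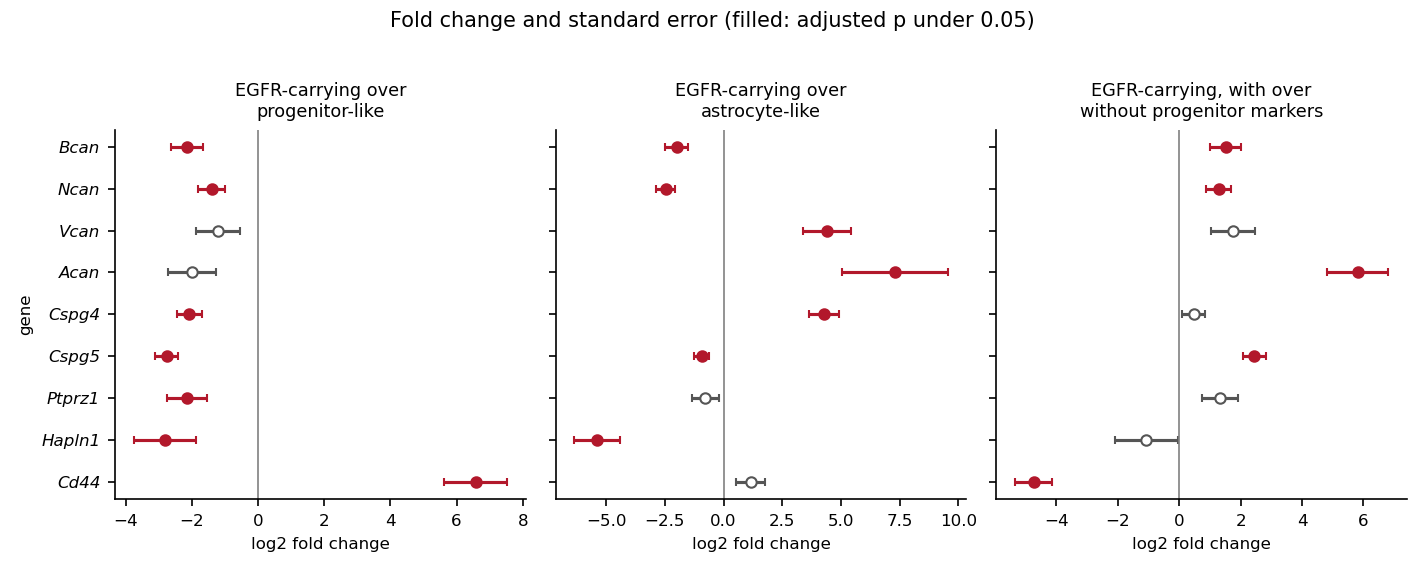
Log2 fold change of each gene (rows) in 3 comparisons of CD45- classes, with bars of 1 standard error and filled points where the edgeR adjusted p was under 0.05. The first panel has 6 filled points left of 0 and Cd44 at 6.57, which rests on 1 progenitor-like UMI. The second sets Vcan, Acan and Cspg4 to the right and Bcan, Ncan, Cspg5 and Hapln1 to the left, and the third has Cd44 alone filled on the left.

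When the EGFR-carrying cells were split by progenitor markers, those with the markers kept a proteoglycan profile nearer to that of progenitor-like cells, and those without held the Cd44. Between the 2 sets, 5 of the 9 genes passed, 4 higher with the markers (Cspg5, Bcan, Ncan and Acan) and 1 lower (Cd44), beside 12.5% of 14108 genes tested, 6.41% higher and 6.07% lower. Cspg5 was 1041 ± 29.4 CPM (SD, n = 2 tumors) with and 167 ± 118 without the markers, a log2 difference of 2.44 ± 0.38 (edgeR adjusted p = 2.4e-06). Acan held 179 UMIs in the cells with markers against 2 in those without, and differed by 5.81 ± 1.00 (adjusted p = 3.0e-05). Bcan (1.52 ± 0.50, adjusted p = 0.044) and Ncan (1.28 ± 0.41, adjusted p = 0.026) passed narrowly. Both were lost without the late tumor, which left 1 tumor per set, and without the tumor block (adjusted p = 0.23 and 0.20). Both were also lost with the clustering set to resolution 2. There the progenitor-marked cells were not clustered again, and the EGFR-carrying cells fell into fewer clusters. The cluster led by Actg2 there met the progenitor marker rule, which it did not in the main grouping. Acan was also lost without the late tumor (4.15, adjusted p = 0.095) and with DESeq2 (adjusted p = 0.42).

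Cd44 went the other way. It was 17.6 and 7.99 CPM in the medium and late cells with progenitor markers and 216 and 399 in those without, a log2 difference of -4.74 ± 0.61 (edgeR adjusted p = 5.7e-08). Cspg4 was 290 and 199 with and 130 and 180 without the markers, and its difference of 0.47 ± 0.38 did not pass (adjusted p = 0.58). In summed UMIs its ratio was 1.34 (counting interval 1.22 to 1.48). Vcan (1.76 ± 0.72, adjusted p = 0.14) and Ptprz1 (1.32 ± 0.58, adjusted p = 0.18), like Cspg4, had the higher value with the markers in both tumors but did not pass, and Vcan and Ptprz1 passed when only the compared classes were fitted (adjusted p = 0.015 and 0.00061). Hapln1 rested on 23 UMIs (-1.07 ± 1.03, adjusted p = 0.66).

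Against progenitor-like cells the 2 sets gave different counts. EGFR-carrying cells with progenitor markers were lower in 3 of the 9 genes, Cspg4 (-1.77 ± 0.38, edgeR adjusted p = 0.00081), Cspg5 (-1.96 ± 0.36, adjusted p = 8.6e-05) and Hapln1 (-3.20 ± 1.03, adjusted p = 0.040, with 11 of the 17 progenitor-like UMIs in 1 cell), beside 3.06% of all genes lower, 5.72% higher and 8.78% passing in either direction. Bcan was -1.43 ± 0.48 (adjusted p = 0.061) and Ptprz1 -1.51 ± 0.57 (adjusted p = 0.11), and both passed with DESeq2 (adjusted p = 0.030 and 0.038). The Cspg4 call was lost without the late tumor (-1.47, adjusted p = 0.14), and that of Hapln1 without the medium or the late tumor (adjusted p = 0.78 and 0.11). EGFR-carrying cells without progenitor markers were lower in 7 genes, all but Hapln1 and Cd44, by 2.10 (Ncan) to 6.82 (Acan). They were higher in Cd44 by 7.78 ± 0.89 (adjusted p = 1.2e-09). The Acan value rests on 2 UMIs in these cells and the Cd44 value on 1 UMI in progenitor-like cells, so neither gives the size of the difference. Of all genes, 25.6% passed in this comparison, 13.7% higher and 11.8% lower.

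The same order was seen per cell only in part, since EGFR-carrying cells held more UMIs of all genes, on average 5561 per cell with progenitor markers and 7129 without against 2940 in progenitor-like cells. Counted per cell, Cspg5 was 12.9 ± 3.31 UMIs in progenitor-like cells (SD, n = 3 tumors), 5.80 ± 1.06 (n = 2) in EGFR-carrying cells with progenitor markers and 1.21 ± 0.91 in those without. Cspg4 was 2.85 ± 0.67, 1.39 ± 0.57 and 1.11 ± 0.31 UMIs per cell in the same order. Bcan was 6.46 ± 1.79, 4.11 ± 0.36 and 1.70 ± 0.43, and Ptprz1 10.5 ± 0.38, 7.42 ± 3.09 and 3.33 ± 1.07. Vcan turned its order between the first pair, at 2.37 ± 0.36 in progenitor-like and 3.44 ± 1.22 in EGFR-carrying cells with progenitor markers, and the tumors overlapped. Ncan likewise was 1.44 ± 0.13 and 1.83 ± 0.19, with no overlap between the tumors. More RNA per cell and deeper capture of the same RNA cannot be told apart in these values.

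Thinning each cell to 1000 UMIs placed the cells at 1 depth. A Cspg5 UMI was then found in 94.8% of 251 progenitor-like cells (95% Clopper-Pearson interval 91.3 to 97.2), 48.1% of 749 EGFR-carrying cells with progenitor markers (44.4 to 51.7) and 14.6% of 649 without (12 to 17.6). Ptprz1 was found in 93.6%, 55.4% and 29.1% and Bcan in 79.3%, 45.5% and 12.9% of the same cells. Cspg4 was found in 57.4%, 17.2% and 13.3%, and Vcan in 50.6%, 36.0% and 12.8%. Astrocyte-like cells, 151 in number, held Bcan in 73.5%, Ptprz1 in 60.3% and Cspg5 in 47.7%, but Cspg4 in 0.662% and Vcan in 1.99%. Cd44 was found in 0 of 251 progenitor-like cells (upper limit 1.46%), 0.801% of EGFR-carrying cells with progenitor markers and 25.9% of those without.

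T cell-like cells, which should lack these genes other than Cd44, came from the CD45+ sort. Their thinned shares were 0.969% for Cspg5, 0.484% for Ptprz1 and 0% of 826 cells for Bcan, Vcan and Cspg4, at a median of 1884 UMIs before thinning. Ncan was the exception at 4.96% (interval 3.59 to 6.67). Its shares of 31.5% in progenitor-like, 23.8% and 11.7% in EGFR-carrying cells with and without progenitor markers, and 27.2% in astrocyte-like cells therefore stood above a higher background than those of the other genes. Without thinning, the Cspg4 shares were 79.8%, 44.1% and 42.2% in progenitor-like cells and the EGFR-carrying cells with and without progenitor markers. The background in CD45- libraries may be higher than in T cell-like cells. CD45- microglia-like cells held Bcan at 12.9, Ptprz1 at 27.8, Vcan at 10.7 and Cspg4 at 10.8 CPM, on 3 to 9 UMIs each. CD45+ microglia-like cells held 1.42, 3.56, 0 and 1.54.

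The EGFR-carrying clusters with progenitor markers were not uniform. Clusters 35 and 36 of the late tumor (66 and 54 cells), of which the first was led by Bcas1, a gene of newly forming oligodendrocytes, held Bcan at 779 and 1022 CPM, Vcan at 294 and 685 and Acan at 54.7 and 95.6. In the same cells Cspg4 was 6.83 (1 UMI, under the floor of 3 UMIs) and 52.7, Cspg5 68.3 and 123, and the progenitor marker Pdgfra 82.0 and 31.2, against 1181 for Pdgfra and 1309 for Cspg5 in cluster 30 of the same tumor. Cluster 34 of the late tumor, with the mitotic gene Aspm among its leading genes, held Vcan at 236 and Acan at 8.99, the lowest Vcan of the clusters with progenitor markers. Cluster 33 of the medium tumor had the highest Ptprz1 (2046) and Vcan (845) of the EGFR-carrying clusters. Cluster 37, in which 35.0% of CD45- cells held a human EGFR UMI, held the highest Bcan (1575), Cspg5 (1575), Ncan (770) and Cspg4 (460, with 380 in cluster 33) of the EGFR-carrying clusters, with Ncan above all 3 progenitor-like values. The clusters were defined without the 9 genes, and most had at least 20 cells in 1 tumor only, so no test was made between them.

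The 2 clusters without progenitor markers each had at least 20 CD45- cells in 1 tumor only, and both held Cd44. Cluster 9 of the late tumor (530 cells) held Cd44 at 399 and cluster 32 of the medium tumor (119 cells) at 210 CPM, with Lgals1, a galectin gene, at 1109 and 449. Cspg5 was 251 in the first and 65.2 in the second, and Ptprz1 346 and 634. Acan was 0 and 2.56.

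**Figure D4:**
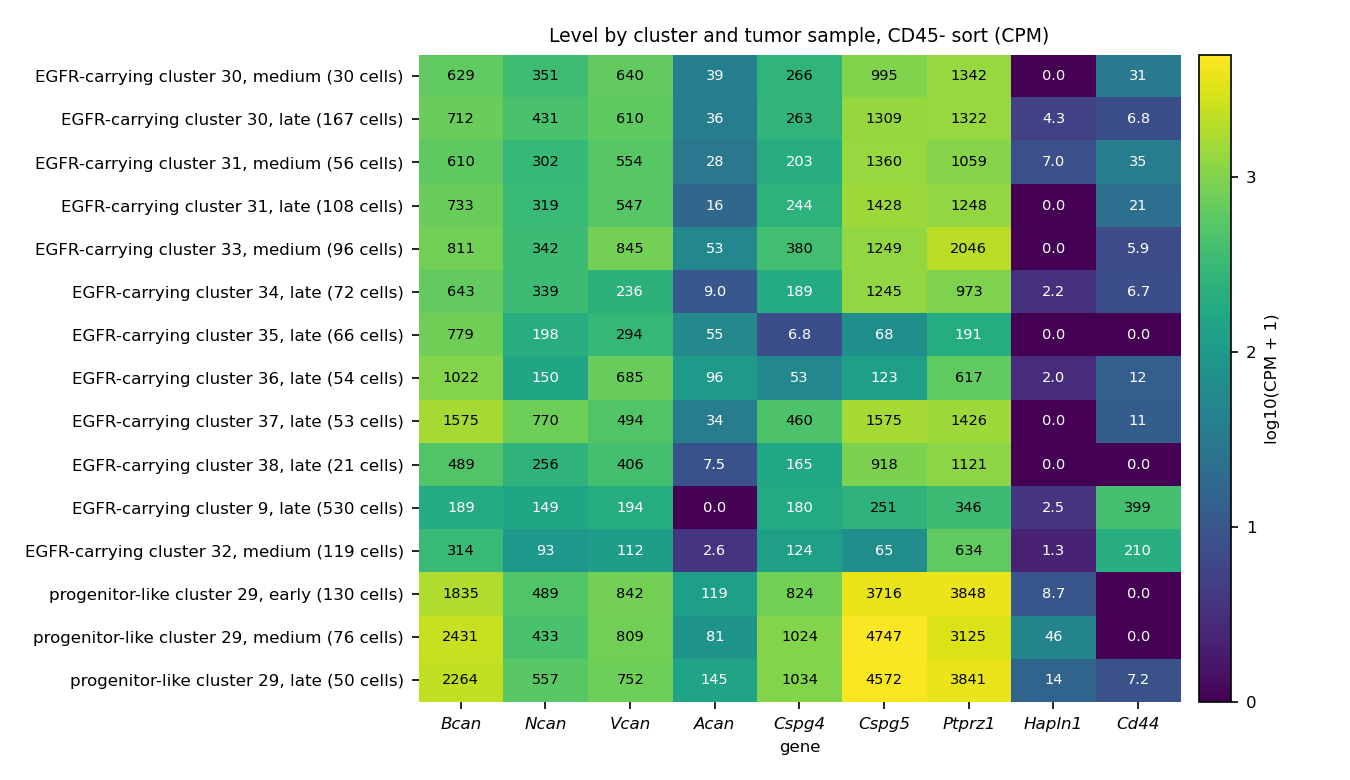
Level of each gene (columns) in each EGFR-carrying cluster and in the progenitor-like cluster, by tumor sample (rows), in CPM with color on a log10 scale, for CD45- cells and sets of at least 20 cells. Clusters 35 and 36 keep Bcan at 779 and 1022 with Cspg4 at 6.83 (1 UMI) and 52.7, and clusters 9 and 32 are those with Cd44 at 399 and 210.

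Between the medium and late tumors, some levels within EGFR-carrying cells went the same way in the 2 sets and others did not. With 1 tumor sample per stage there is no test of stage, and the intervals that follow cover counting error only. In cells with progenitor markers the late over medium log2 ratio left out 0 for 5 of the 9 genes, being -0.54 for Cspg4 (interval -0.73 to -0.36), -0.43 for Vcan, -0.56 for Ptprz1, -1.14 for Cd44 and 0.14 for Bcan (interval 0.03 to 0.25). By the same rule, 27.4% of the 14108 genes tested between the 2 sets left out 0 (16.5% higher and 10.9% lower in the late tumor), and 33.5% (20.9% higher and 12.6% lower) of those with at least 47 UMIs, the fewest of the 5 genes, which 8 of the 9 reached. The count was 3 when 1 of the 4 medium libraries was left out, and 4 to 7 when any other library was. In cells without the markers it left out 0 for 7 genes, being 0.46 for Cspg4, 1.58 for Cspg5, 0.66 for Ncan, 0.91 for Vcan and 0.88 for Cd44, and -0.63 for Bcan and -0.78 for Ptprz1. Here 30.4% of the 14108 genes left out 0 (19.4% higher and 11% lower), and 64.5% (48.3% higher and 16.2% lower) of the 1410 with at least the 669 UMIs that these 7 genes reached, so that such a call was common at this depth. Ptprz1 was thus lower in the late tumor in both sets, while Cspg4 and Vcan were lower in one and higher in the other. The 2 tumors filled different clusters of each set, and the part of this in the ratios was not tested. In the 2 clusters with progenitor markers that had at least 20 cells in both tumors, Ptprz1 was 1342 and 1322 CPM (cluster 30, medium and late) and 1059 and 1248 (cluster 31). Cspg4 was 266 and 263, and 203 and 244, and Vcan 640 and 610, and 554 and 547. In each of these pairs the counting intervals of the 2 tumors overlapped. Those of Cspg5 in cluster 30 did not, at 995 CPM (interval 877 to 1124) for the medium tumor against 1309 (1245 to 1376).

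The 4 technical libraries of each tumor show how far these ratios go beyond library spread. In cells with progenitor markers, Ptprz1 ran from 1440 to 1781 CPM over the medium and from 915 to 1291 over the late libraries, with no overlap, and Cspg4 from 222 to 398 and from 187 to 217. Vcan overlapped (464 to 808 and 450 to 616), as did Bcan (627 to 749 and 596 to 882) and Cd44 (7.46 to 30.4 and 3.37 to 9.49). In cells without the markers, Cd44 ran from 173 to 235 in medium and from 371 to 443 in late libraries and Vcan from 62.4 to 139 and from 166 to 206, with no overlap in either gene. Cspg5 (37.8 to 182 and 223 to 272) and Ncan (75.6 to 122 and 132 to 167) did not overlap there either. Ptprz1 overlapped there (398 to 759 and 268 to 417), as did Cspg4 (86.3 to 185 and 163 to 206) and Bcan (153 to 425 and 138 to 251). Libraries of 1 tumor are technical repeats, so a gap between them says that the 2 tumor samples differed, in the makeup of clusters or in level, and not that the stages did. The share of all genes whose library ranges did not overlap was not counted. Whether these genes differ from others in this is therefore not known.

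**Figure D5:**
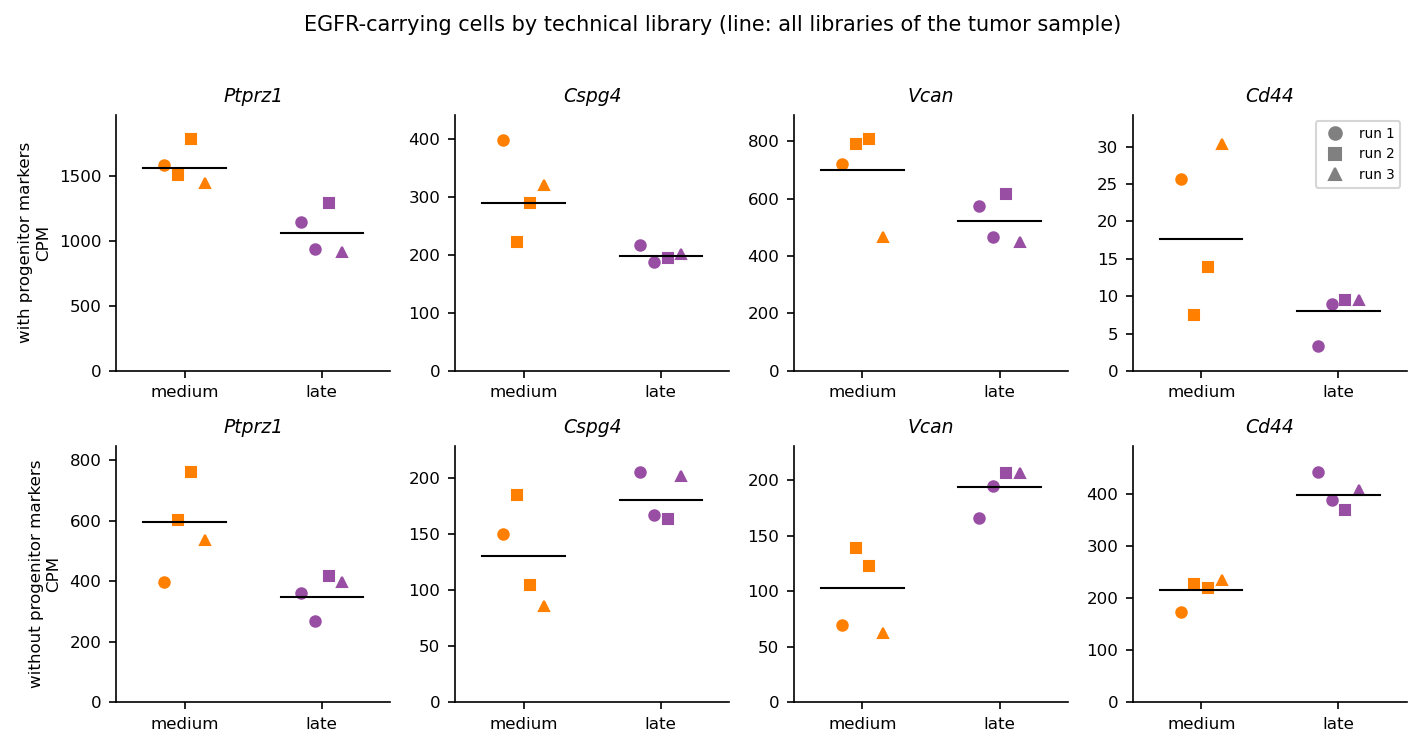
Ptprz1, Cspg4, Vcan and Cd44 in each technical library with at least 10 cells (points, shaped by sequencing run) of the medium and late tumors, in CPM on axes that start at 0, for EGFR-carrying cells with (top) and without (bottom) progenitor markers. Lines mark the level over all libraries of the tumor. Cd44 without progenitor markers and Ptprz1 with them show library ranges that do not overlap between the tumors. The share of all genes without such overlap was not counted.

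In progenitor-like cells, the late over medium interval included 0 for Cspg4 (0.02), Cspg5 (-0.05), Bcan (-0.10), Vcan (-0.10) and Ncan (0.37), while Ptprz1 was 0.30 (interval 0.14 to 0.46). Medium over early, Cspg4 was 0.31 (0.06 to 0.56), Cspg5 0.36 (0.25 to 0.48) and Bcan 0.42 (0.26 to 0.58), while Ptprz1 was -0.29 (-0.42 to -0.16) and Hapln1, on 12 UMIs, 11 of them in 1 cell, against 3, was 2.25 (0.52 to 4.87). The ratios of Cspg4, Cspg5 and Bcan were smaller in size than the gap of either EGFR-carrying set to progenitor-like cells for the same genes. The intervals cover counting error between single tumors. The share of all genes that left out 0 was not counted for progenitor-like cells, so whether these genes differ from others in this is not known.

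The genes most like each of the 9 across 56 sums of class, sort and tumor were found by Pearson's correlation of log2 levels, as a description. The sums share tumors and libraries and include many classes at 0. Gpr37l1 was nearest to both Bcan (r = 0.93) and Ptprz1 (r = 0.92), and these 2 were among the 3 nearest of each other (r = 0.88). Vcan was nearest to C1ql1 (r = 0.89) and Gpr17 (r = 0.85), which with Sox6 (r = 0.92 with Bcan) are among the progenitor markers used to name the classes. Cspg5 and Ncan were both nearest to Mir9-3hg (r = 0.89 and 0.83) and then Wnt7b (r = 0.88 and 0.82). Cspg4 was nearest to Shc4 (r = 0.75), Acan to Plpp4 (r = 0.92), Hapln1 to the astrocyte GABA transporter gene Slc6a11 (r = 0.79), and Cd44 to Baz1a (r = 0.67).

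A list of 59 further genes held the partners, chain enzymes, proteases and receptors of these proteoglycans. Against progenitor-like cells, EGFR-carrying cells were higher in 3 and lower in 8 of the 51 that could be tested, with a list median of -0.22 on the log2 scale, beside 8.25% higher and 7.06% lower over all genes tested. The lower ones included 1 of the 10 tested genes of chain synthesis and 3 of the 7 of chain sulfation and epimerization. Dse, a dermatan sulfate epimerase, was lower by 3.62 ± 0.70 (edgeR adjusted p = 0.00014), and Xylt1, the xylosyltransferase that starts a chain, by 2.05 ± 0.47 (adjusted p = 0.0012), at 641 CPM in progenitor-like cells against 181 and 123 in EGFR-carrying cells with and without progenitor markers. Spock2, another brain proteoglycan, was lower by 3.10 ± 0.37 (adjusted p = 2.6e-08). The 3 that were higher were the small leucine-rich proteoglycan Bgn (3.11 ± 0.82, adjusted p = 0.011) and the lectican-cleaving proteases Adamts4 (2.02 ± 0.72, adjusted p = 0.0498) and Adamts1 (1.48 ± 0.43, adjusted p = 0.012). Adamts1 stood at 134 CPM in progenitor-like cells, 227 in EGFR-carrying cells with and 450 in those without progenitor markers. Adamts4 stood at 18.2 (0 to 50.6 over the tumors), 21.9 (17.6 to 26.1) and 63.0 CPM in the same order. UMIs in progenitor-like cells numbered 8 for Adamts4, 14 for Bgn and 27 for Dse. Split by progenitor markers, EGFR-carrying cells with the markers were higher in 0 and lower in 6 of 53 genes of the list. Those without were higher in 6, with Bgn, Adamts1 and Adamts4 among them, and lower in 13.

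In the other comparisons the same list gave different counts. Against astrocyte-like cells, EGFR-carrying cells were higher in 7 and lower in 3 of 51 genes, beside 7.53% higher and 7.45% lower over all genes tested. The highest were the sulfotransferase Chst7 (6.86 ± 2.30, edgeR adjusted p = 0.034), which had 0 UMIs in astrocyte-like cells so that the fitted value is no bound, the lectican partner tenascin-R (Tnr, 5.10 ± 0.65, adjusted p = 5.0e-08) and the protease Adamts5 (3.62 ± 1.16, adjusted p = 0.025), which had 1 UMI in astrocyte-like cells. The lowest were Hapln2 (-3.35 ± 0.78, adjusted p = 0.0014), Nrcam (-1.65 ± 0.50, adjusted p = 0.017) and the Ptprz1 ligand Mdk (-1.20 ± 0.39, adjusted p = 0.028). Hapln2 had 13 UMIs in astrocyte-like cells, at 0 to 62.0 CPM over the tumors, and stood at 442 in oligodendrocyte-like cells.

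Between EGFR-carrying cells with and without progenitor markers, 9 of 53 genes were higher with the markers and 8 lower, beside 6.41% higher and 6.07% lower over all genes tested. The tenascins parted. Tnr was 596 CPM with and 8.01 without the markers (6.60 ± 0.60, edgeR adjusted p = 1.0e-11), and Tnc, which binds Ptprz1 and the lecticans, was 19.2 with and 581 without (-4.98 ± 1.04, adjusted p = 0.0021). Contactin-1 (Cntn1), a Ptprz1 partner on neighbouring cells, followed Tnr at 749.8 against 22.3 (5.11 ± 0.47, adjusted p = 7.2e-12), and so did Nfasc (4.40 ± 0.70, adjusted p = 3.7e-05). Rtn4rl1 (-4.49 ± 1.00, adjusted p = 0.00078, on 1 UMI with and 43 without the markers) and the hyaluronan-degrading Cemip2 (-4.03 ± 0.74, adjusted p = 4.8e-05) followed Tnc. Between the sorts, where 46.1% of all genes passed, 8 of 53 genes were higher in CD45+ cells, led by Cd74 (5.58 ± 1.16, adjusted p = 0.0077), Srgn (4.77 ± 0.53, adjusted p = 0.00056) and Rtn4rl1 (3.29 ± 0.23, adjusted p = 0.00012). In CD45+ cells 29 were lower, led by Hapln2 (-5.62 ± 0.45, adjusted p = 0.00019), Adamts4 (-4.67 ± 0.39, adjusted p = 0.00020) and Spock3 (-4.16 ± 0.28, adjusted p = 0.00012).

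The CD45+ libraries also held cells of the EGFR-carrying clusters, 232 in the medium and late tumors. Of these, 6 had a barcode that also occurred in a CD45- library of the same run, in 2 cases on an EGFR-carrying cell, and whether they passed the sort or came from another library was not tested further. With progenitor markers, Bcan was 861 and 452 CPM in the medium and late CD45+ cells against 708 and 778 in the CD45- cells, and Ptprz1 1753 and 836 against 1558 and 1058. Without the markers, Cd44 was 233 and 466 in CD45+ cells against 216 and 399. The CD45+ values rest on 95 and 26 cells with and 73 and 38 cells without the markers.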

How the data were processed

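Cells from EGFR-driven mouse glioblastomas, sorted by CD45, were profiled with inDrop. A further part of the genotype is not reported here. The authors deposited raw UMI counts per gene and cell, made by mapping reads with RapMap in bcbio-nextgen to the GRCm38 transcriptome (mm10 per the labels) with transgene sequences added, and by calling barcodes against empty droplets. Removal of ambient RNA and doublets is described in the study's methods, but whether it came before the deposit is not given in the sources used here. A deposited annotation gave the run, sort and stage of each of the 24 libraries, which held 17 to 1751 cells. The 3 runs each mixed stages and sorts, so the tumor sample, and not the run, was the replicate, and within-run values were computed as fold changes only.

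Of 20811 cells, those with at least 500 UMIs, 500 genes and at most 20% mitochondrial UMIs were kept (17894), and 113 of 17786 scored cells (0.635%, Scrublet in scanpy 1.11.5) were removed as doublets. Names were matched for all but 112 of the 50262 identifiers. Clustering used 2000 variable genes, 40 components, 20 neighbours and leidenalg 0.10.2 at resolution 1, with 77 genes left out, and cells of progenitor-marked clusters were clustered again. A class needed 3 markers raised by 2-fold and present in 10% of cells. Summed counts per tumor sample and class (at least 20 CD45- cells) or sort were tested with edgeR 4.0.16 in R 4.3.3 (TMM, filterByExpr, robust quasi-likelihood, two-sided, Benjamini-Hochberg over all genes tested, threshold 0.05), with the tumor sample as a block. Both sorts of a tumor came from the same sample, and their deviations from the sort means correlated at 0.384, 0.280 and 0.302 for the early, medium and late tumors over 18433 genes. The procedure was tested on simulated counts. There were 3 tumor samples, with the tumor and the stage being the same thing, and the block takes out differences between tumors. The p-values measure the spread left after it and say nothing of the spread between tumors of 1 stage. In the class fits that spread was shared over all CD45- classes, with 17 or 18 residual degrees of freedom against 2 in the sort fit. The EGFR-carrying classes entered these fits from 2 tumors.

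Intervals for levels and shares cover counting error only. The genes named from the list of 59 were the 3 highest and 3 lowest log2 differences among those that passed, and the genes named beside clusters (Bcas1, Aspm, Pdgfra and Lgals1) were chosen after their values were seen. The genes and lists were chosen with earlier results of these data known. DESeq2 1.42.0, other filters, doublet settings, class definitions and left-out tumors or libraries were tried, and the removal of the highest doublet scores, the doublet-kept class fits, the removal of reference cells with a human EGFR UMI and the split against progenitor-like cells were chosen after seeing the data.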

Additional observations from a re-analysis of the deposited data

How the results depend on the processing

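Of the alternative values for counts of genes, 153 stayed within 1.5 times the reported count and 19 did not, and of those for single genes 933 were unchanged in direction and call or moved within their spread, 87 moved further, 50 lost and 31 gained a call and 5 reversed. Leaving out 1 tumor at a time gave 4 to 6 (reported 7) of the 9 genes and 810 to 1598 (2083, with 1285 without the medium tumor) of all genes for EGFR-carrying over progenitor-like cells, 4 to 6 (7) and 1011 to 1541 (2038, with 1135 without the medium tumor) for EGFR-carrying over astrocyte-like cells, 2 to 4 (5) and 563 to 1679 (1761) for EGFR-carrying cells with over without progenitor markers, and 7 to 8 (7) and 7049 to 7098 (8503) between the sorts. The list of 59 gave 6 to 8 (11), 5 to 8 (10), 9 to 18 (17) and 34 to 39 (37) in the same order. The lowest counts of the 3 class comparisons came without the late tumor. Dividing cells by their own human EGFR UMIs left 1 of the 9 genes, 263 of all genes and 2 of the list. With over without progenitor markers, 3 of the 9 genes passed with DESeq2, 3 without the replicate block and 3 with a finer clustering, which left 779 of all genes. Without the block, Ncan and Ptprz1 were lost and Acan gained against progenitor-like cells, Cspg5 was lost against astrocyte-like cells, Bcan and Ncan were lost between the EGFR-carrying sets, and the sort comparison kept 7. The late over medium count in EGFR-carrying cells with progenitor markers was 3 to 7 (5) when single libraries were left out, and 7 to 8 (7) without the markers. Directions turned for Ptprz1 (1.09 within run 3) and Acan (-0.10 within run 2 and -0.42 within run 3) against astrocyte-like cells, and for Cspg4 (-0.044 without the medium tumor) and Hapln1 (0.77 within run 2) between the EGFR-carrying sets. The cause was not tested. Acan and Hapln1 rest on few UMIs, which limits what depth can show for them.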

Other observations

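Outside the EGFR-carrying, progenitor-like and astrocyte-like cells, several classes held some genes of the group. Mural-like cells, the class of pericytes, for which NG2 is a textbook surface marker, held Cspg4 at 429 ± 37.8 CPM (SD, n = 3 tumors), between 398 and 471, with Vcan at 13.5 ± 13.9 and Bcan at 16.9 ± 9.47. Macrophage- or monocyte-like CD45+ cells held Cspg4 at 39.0 ± 10.2, and after thinning 22 of 795 of them held a UMI, against 0 of 826 T cell-like cells. Neuron-like cells held Cspg5 at 242 ± 78.2, Ncan at 214 ± 88.4 and Ptprz1 at 115, between 58.0 and 224 over the tumors. In the early tumor, the only one in which these 2 classes had at least 20 CD45- cells, neuroblast-like cells held Ncan at 264, Ptprz1 at 169 and Vcan at 123, and ependymal-like cells held Ptprz1 at 250.1.

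Cd44 was seen in immune classes, at 766 ± 225 CPM in neutrophil-like, 266 ± 48.1 in B cell-like (n = 2) and 181 ± 36.8 in T cell-like cells. It was 72.8 ± 24.5 in macrophage- or monocyte-like cells, 50.4 ± 33.1 in border or perivascular macrophage-like cells and 5.38 ± 3.58 in microglia-like cells, the class with the most CD45+ cells (5728). The 38 early CD45- cells that fell in the EGFR-carrying clusters with progenitor markers held Bcan at 1687, Cspg5 at 1198 and Ptprz1 at 1524, and 0 UMIs of Cd44. Mean Ncan was 36.3 to 100.2 CPM in the immune, vascular, choroid plexus, fibroblast-like and oligodendrocyte-like classes, where mean Bcan was at most 16.9 and mean Vcan at most 17.7.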
